A study of Mus musculus with 6 samples.

Results

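The interferon system was followed through 52 genes, made up of interferon-inducible genes, the receptors of type I and type II interferon and 2 receptor kinases. They were taken by gene symbol from a list chosen with earlier results of these data known, and each of the 52 had a row among the 15836 of the deposited gene table. RNA had been sequenced from 6 samples of a mouse cell line named CAF, for which the tissue is given as pancreatic tumor. The 3 MAOA-KO libraries carry the genotype MAOA ko and the treatment MAOA knockout, although another label field calls this group a knockdown, and the 3 control libraries carry the genotype wt. All 6 come from the same line, no interferon treatment is named for either group, and the labels do not say whether the knockout is a clone or a pool, or whether replicates are separate cultures. The p-values therefore measure the spread between these libraries, which may be technical.

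Totals ran from 18631359 to 26645441 counts per library, so that 3 counts correspond to 0.110 to 0.156 CPM (counts per 1000000, with library sizes scaled by trimmed mean of M-values). These limits cover counting error only. The row that names Maoa held 545, 664 and 490 counts in MAOA-KO, against 1124, 1151 and 1221 counts in the controls, but it lists a locus on chromosome 19, whereas Maoa lies on chromosome X, so whether these counts are those of the targeted gene was not established. Of 12 fibroblast markers 8 stayed under a mean of 5 CPM in both groups and Lum had no row. Col1a1, the main fibroblast collagen, averaged 0.636 ± 0.227 CPM in MAOA-KO and 1.6 ± 0.398 CPM in the controls, and Pdgfra 0.669 ± 0.177 CPM in MAOA-KO and 1.30 ± 0.222 CPM in the controls (SD, n = 3 each, for these and all means below). Acta2 and Col3a1 went the other way: Acta2, an actin of contractile cells, averaged 45.9 ± 0.859 CPM in MAOA-KO and 30.9 ± 1.07 CPM in the controls, and Col3a1, a fibrillar collagen, 129 ± 2.75 CPM in MAOA-KO and 121 ± 5.09 CPM in the controls, with overlapping groups. The epithelial keratin Krt19 averaged 86.3 ± 2.83 CPM in MAOA-KO and 351 ± 10.4 CPM in the controls, and Vim, a filament gene of mesenchymal cells, 1789 ± 30.1 CPM in MAOA-KO and 3426 ± 73.8 CPM in the controls. Of 16 leukocyte markers 2 had a row, Cd68 and Cd14, with a summed level of 67.7 to 75.2 CPM in MAOA-KO and 77.4 to 80.8 CPM in the controls; Ptprc and Csf1r had no row. The fibroblast markers, mostly Vim, summed to 1946 to 2003 CPM in MAOA-KO and 3497 to 3642 CPM in the controls. The 7 epithelial markers with a row summed to 1213 to 1284 CPM in MAOA-KO and 2102 to 2232 CPM in the controls, and the part of these differences in the interferon genes was not tested. In bulk RNA, fewer cells that express a gene and less RNA per cell cannot be told apart.

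Type I interferons bind Ifnar1 and Ifnar2, and interferon gamma binds Ifngr1 and Ifngr2. Both receptors signal through Janus kinases to STAT factors, which with Irf9 or alone switch on a large shared set of genes. Some products sense viral RNA, some block viral replication, some attack the vacuoles in which pathogens hide, and some cut and load peptides onto MHC class I. Cells also make many of these transcripts at a low basal level with no added interferon.

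Between MAOA-KO and control, most of the 52 genes changed, mostly upwards and by less than 2-fold. In edgeR's quasi-likelihood test, 31 rose and 12 fell at an adjusted p under 0.05, whereas 9 did not pass. The called share was 82.7%, against 73.9% of the 13243 genes tested, which is a background close to it. The direction was less even: 59.6% of the 52 rose and 23.1% fell, against 37.0% and 36.9% of all genes tested. Their median log2 fold change was 0.23, against 0.00 over all genes tested. Because the 52 were chosen with earlier results of these data known, these contrasts describe the list and are not a separate test. With library totals in place of the scaling factors, 34 of the 52 rose and 7 fell, and calls over all genes also tilted upwards, with 5759 higher and 4044 lower. All 52 passed the filter on low counts.

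Few of the changes were large. A change of at least 2-fold was reached by Erap1, which rose, and Socs1, which fell, that is by 3.85% of the 52 genes against 14.0% of all genes tested. Where the group with more expression averaged 5 CPM or above, 42 of the 51 interferon genes were called, against 78.8% of all genes. There the median size of a log2 fold change was 0.31 for 51 interferon genes and 0.31 for all 10311 such genes, and 1 interferon gene passed 2-fold against 9.40% of all such genes. The 3 MAOA-KO libraries did not overlap the 3 controls for 84.6% of the interferon genes, against 75.1% of all genes tested. Directions differed by role: genes for peptide loading, guanylate-binding proteins and receptor chains were mostly higher, the OAS and IFIT genes were 6 higher and 2 lower, and the 16 other effectors were 6 higher and 8 lower.

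**Figure D1:**
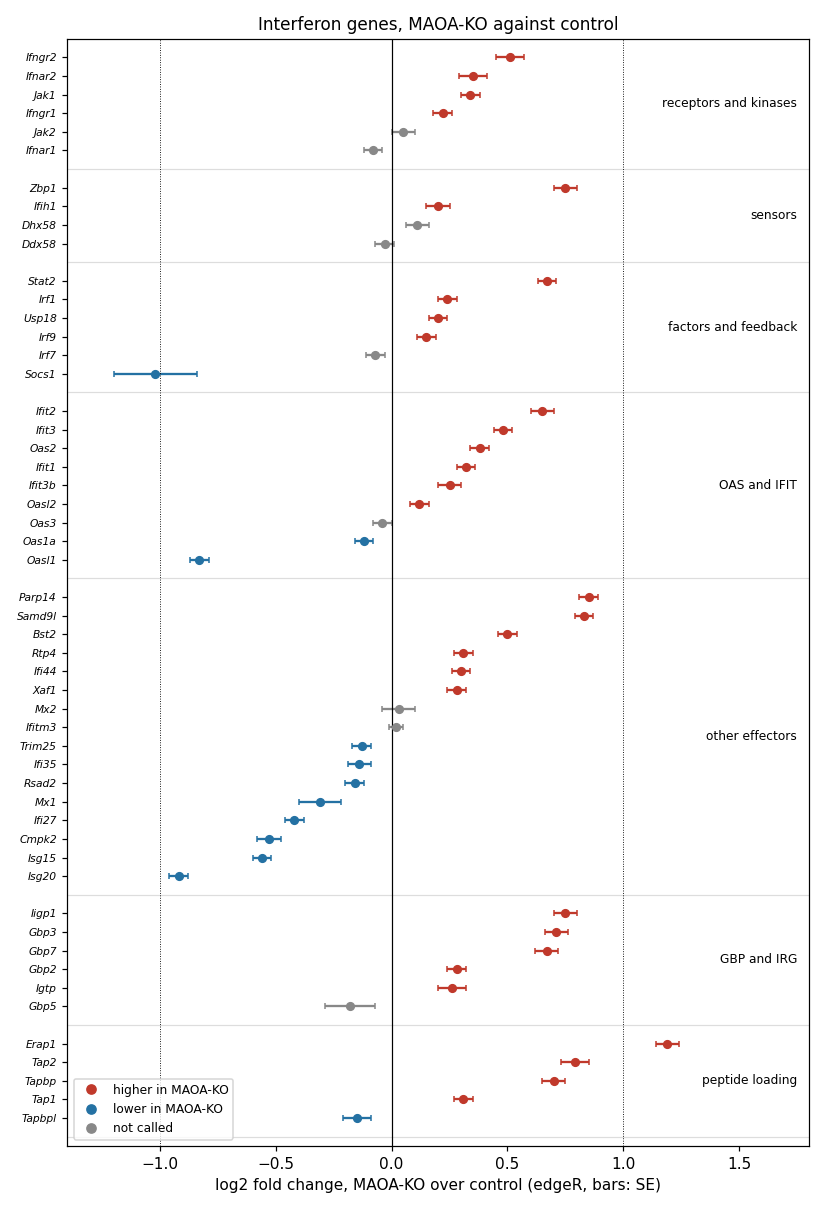
Log2 fold change of MAOA-KO over control for each of the 52 genes, ordered within its role, with the standard error as a bar and dotted lines at a 2-fold change. Peptide loading genes reach the highest value (Erap1, 1.19), and the lowest belong to Socs1 (-1.02), Isg20 (-0.92) and Oasl1 (-0.83).

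The promoters of genes that rose and of genes that fell both held the interferon-stimulated response element, the DNA site bound by STAT and IRF factors. RefSeq promoters (GRCm38.p6, 250 bases before to 50 after a start) were matched for 40 of the 52 genes, and the core, which is GAAA, any 2 bases and GAAA again, was searched on both strands, at any listed start, with overlapping matches allowed. It was found in 19 of the 40 (47.5%), against 3.99% of 27025 genes with promoters of the same length. Those are all genes with a listed promoter, tested here or not, whereas the 52 were chosen as interferon genes. This contrast, like that of the second motif below, therefore describes the choice of list and is not a result of the knockout. Of the 19 genes, 11 rose, 4 fell and 4 did not pass, with a median log2 fold change of 0.25; of the 21 without a match, 13 rose, 5 fell and 3 did not pass, with a median of 0.22. All 5 matched promoters of the GBP and IRG group held the core, as did 5 of 8 in the OAS and IFIT group, while 0 of the 6 receptor and kinase promoters did. The second motif, the gamma-activated site TTCNNNGAA, was found in 12 of the 40 (30.0%), against 9.55% of all genes. Of these 12 genes, 6 rose, 3 fell and 3 did not pass, with a median log2 fold change of 0.13. Of the 28 without this motif, 18 rose, 6 fell and 4 did not pass, with a median of 0.24. The sequences below show the response element, in capitals with 15 bases on each side, in the 4 genes with a match that fell and in 7 that rose, each written 5′ to 3′ on the strand of its gene; TTTC, 2 bases and TTTC is the same core read on the other strand.
Socs1, fell: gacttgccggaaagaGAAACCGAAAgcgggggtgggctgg
Isg15, fell: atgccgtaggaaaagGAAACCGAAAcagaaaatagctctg
Rsad2, fell: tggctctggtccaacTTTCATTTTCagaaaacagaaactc
Oas1a, fell: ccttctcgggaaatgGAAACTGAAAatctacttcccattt
Erap1, rose: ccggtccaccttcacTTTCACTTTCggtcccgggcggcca
Gbp3, rose: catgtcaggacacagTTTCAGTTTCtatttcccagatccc
Gbp7, rose: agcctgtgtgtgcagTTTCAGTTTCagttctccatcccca
Stat2, rose: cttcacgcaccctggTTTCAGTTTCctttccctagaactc
Bst2, rose: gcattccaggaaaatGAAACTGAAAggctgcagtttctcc
Ifit3, rose: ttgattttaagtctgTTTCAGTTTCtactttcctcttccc
Ifit3b, rose: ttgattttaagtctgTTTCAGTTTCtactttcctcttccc

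In Isg15 the core is repeated, since 3 overlapping matches begin 78, 72 and 66 bases before the start, and the window shown spans chr4:156200866-156200905 (minus strand). The windows of Ifit3, at chr19:34583392-34583431 (plus strand), and Ifit3b, at chr19:34607788-34607827 (plus strand), carry the same letters. The Erap1 match begins 4 bases before the start, within chr13:74639834-74639873 (plus strand), and the Gbp3 match 45 bases before it, within chr3:142559984-142560023 (plus strand). A match describes letters only, and binding was not measured.

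The receptor chains and kinases were the first step examined, and 4 of the 6 rose while none fell at the threshold. Their called share of 66.7% was below the 73.9% of all genes tested, of which 37.0% rose. Ifngr2 (ENSMUSG00000022965, chromosome 16, 91547072 to 91565623 in GRCm38.p6), the signalling chain of the interferon gamma receptor, measured 30.4, 29.6 and 32.4 CPM in MAOA-KO, against 21.7, 21.5 and 21.4 CPM in the controls (log2 fold change 0.51 ± 0.06, adjusted p = 9.99e-09, edgeR, as for all p-values below). Ifngr1, its ligand-binding chain, measured 112, 105 and 108 CPM in MAOA-KO, against 92.7, 93.4 and 94.2 CPM in the controls (log2 fold change 0.22 ± 0.04, adjusted p = 3.33e-05). Both chains were therefore higher in every MAOA-KO library than in any control, Ifngr2 by 1.43-fold and Ifngr1 by 1.16-fold. The chains of the type I receptor did not move alike. Ifnar2 measured 25.4, 24.1 and 24.7 CPM in MAOA-KO, against 19.1, 19.7 and 19.6 CPM in the controls (log2 fold change 0.35 ± 0.06, adjusted p = 8.81e-06), and these groups did not overlap. Ifnar1 measured 79.0, 83.9 and 82.4 CPM in MAOA-KO, against 87.8, 82.5 and 88.4 CPM in the controls, with overlapping groups and a log2 fold change of -0.08 ± 0.04 (95% interval -0.16 to 0.01, adjusted p = 0.114, or 0.0426 with the replicate number as a block). Of the kinases, Jak1, which serves both receptors, measured 258, 274 and 264 CPM in MAOA-KO, against 203, 210.4 and 217 CPM in the controls (log2 fold change 0.34 ± 0.04, adjusted p = 1.78e-08). Jak2, which serves the interferon gamma receptor, measured 83.5, 89.1 and 82.3 CPM in MAOA-KO, against 76.4, 84.1 and 85.5 CPM in the controls, and its groups overlapped (log2 fold change 0.05 ± 0.05, adjusted p = 0.315, 95% interval -0.04 to 0.15). With library totals only Jak2 was called higher (log2 fold change 0.14, adjusted p = 0.00867).

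Of the 4 sensors of foreign or misplaced nucleic acid, Zbp1 and Ifih1 rose and Ddx58 and Dhx58 did not pass. Zbp1, which senses Z-form nucleic acid and can start necroptosis, measured 64.2, 65.8 and 63.8 CPM in MAOA-KO, against 39.7, 38.4 and 37.0 CPM in the controls (log2 fold change 0.75 ± 0.05, adjusted p = 1.27e-13). It was higher by 1.68-fold, with a wide gap between the groups. Ifih1, which encodes the long double-stranded RNA sensor MDA5, measured 77.8, 84.9 and 82.2 CPM in MAOA-KO, against 68.4, 73.8 and 71.8 CPM in the controls (log2 fold change 0.20 ± 0.05, adjusted p = 0.000412), and the groups stood apart by a small margin. Ddx58, which encodes the RNA sensor RIG-I, measured 202, 216 and 212 CPM in MAOA-KO, against 206, 215 and 221 CPM in the controls, so the groups overlapped (log2 fold change -0.03 ± 0.04, adjusted p = 0.532, 95% interval -0.10 to 0.05). Dhx58, the related regulator LGP2, measured 52.1, 46.2 and 50.4 CPM in MAOA-KO, against 47.7, 43.0 and 46.7 CPM in the controls, with overlapping groups (log2 fold change 0.11 ± 0.05, adjusted p = 0.0626). The Dhx58 result sat near the threshold and depended on single libraries: without MAOA-KO replicate 2 its adjusted p was 0.00805 and without control replicate 1 it was 0.0339, and it was 0.00922 with the replicate block. It also passed with library totals only (0.00161) and with a filter at a mean of 1 CPM (0.039).

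Among the transcription factors and feedback genes 4 rose, 1 fell and 1 did not pass. Stat2, the STAT that pairs with Irf9 downstream of type I interferon, measured 107, 105 and 105 CPM in MAOA-KO, against 67.3, 66.3 and 65.4 CPM in the controls (log2 fold change 0.67 ± 0.04, adjusted p = 9.26e-14). Its groups were tight and far apart, a 1.59-fold rise. Irf9, its DNA-binding partner, rose far less, with 100.4, 97.1 and 102 CPM in MAOA-KO, against 89.1, 89.3 and 90.5 CPM in the controls (log2 fold change 0.15 ± 0.04, adjusted p = 0.00129). Irf1, a factor induced by interferon gamma, measured 67.8, 65.8 and 68.1 CPM in MAOA-KO, against 56.9, 55.5 and 58.0 CPM in the controls (log2 fold change 0.24 ± 0.04, adjusted p = 2.09e-05). Usp18, a protease that removes Isg15 from proteins and dampens the type I receptor, measured 131, 127 and 126 CPM in MAOA-KO, against 112, 114 and 109 CPM in the controls (log2 fold change 0.20 ± 0.04, adjusted p = 7.20e-05). Each of these stood apart between the groups, with rises of 1.11-fold to 1.18-fold for the last 3. Irf7, which drives interferon alpha genes, measured 247, 229.8 and 245 CPM in MAOA-KO, against 261, 252 and 243 CPM in the controls; the groups overlapped and it did not pass (log2 fold change -0.07 ± 0.04, adjusted p = 0.117). Its call changed with single libraries: the adjusted p was 0.0498 without MAOA-KO replicate 1, 0.0481 without control replicate 3 and 0.0102 with the replicate block. Socs1, an inhibitor of Janus kinases, was the lowest of the 52 genes in level, with 1.05, 1.13 and 1.46 CPM in MAOA-KO, against 2.3, 2.60 and 2.42 CPM in the controls, and was 2.03-fold lower in MAOA-KO (log2 fold change -1.02 ± 0.18, adjusted p = 1.93e-05).

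The OAS and IFIT genes, which encode enzymes that make 2'-5' oligoadenylate and proteins that bind foreign RNA ends, rose in 6 cases, fell in 2 and did not pass in 1. All 4 IFIT genes were among the rises. Ifit2 (ENSMUSG00000045932, chromosome 19, 34550694 to 34576419) measured 66.4, 70.1 and 67.8 CPM in MAOA-KO, against 39.8, 47.6 and 43.1 CPM in the controls (log2 fold change 0.65 ± 0.05, adjusted p = 4.36e-11). Ifit3 measured 205, 233 and 217 CPM in MAOA-KO, against 150.1, 161 and 158 CPM in the controls (log2 fold change 0.48 ± 0.04, adjusted p = 3.81e-10). Neither gene had overlapping groups, and Ifit1 and Ifit3b rose by 1.24-fold and 1.19-fold. Ifit3 and Ifit3b are near-identical copies: 51.2% of the 50-base windows of the Ifit3 transcript also occur in Ifit3b, so how their reads were divided is uncertain. Oasl1, an OAS-like protein that restrains Irf7 translation, measured 80.4, 76.3 and 78.7 CPM in MAOA-KO, against 143, 139.9 and 135 CPM in the controls and was 1.78-fold lower (log2 fold change -0.83 ± 0.04, adjusted p = 1.48e-15). Its neighbour Oasl2 rose by 1.09-fold, with means of 217 ± 4.01 CPM in MAOA-KO and 199 ± 6.99 CPM in the controls (log2 fold change 0.12 ± 0.04, adjusted p = 0.00493). Every MAOA-KO library lay below every control for Oasl1 and above every control for Oasl2. Oas2, an oligoadenylate synthetase, measured 82.9, 82.7 and 84.9 CPM in MAOA-KO, against 64.1, 64.4 and 63.6 CPM in the controls (log2 fold change 0.38 ± 0.04, adjusted p = 7.36e-09). Oas3, the synthetase with the longest protein of the family, measured 132, 126 and 128 CPM in MAOA-KO, against 137, 129 and 132 CPM in the controls, with overlapping groups (log2 fold change -0.04 ± 0.04, adjusted p = 0.352). Oas1a had means of 90.6 ± 1.59 CPM in MAOA-KO and 98.5 ± 4.48 CPM in the controls (log2 fold change -0.12 ± 0.04, adjusted p = 0.0134). Its call was lost without MAOA-KO replicate 2 (adjusted p = 0.0508), without control replicate 1 (0.071) and with library totals only (0.482), and 57.6% of its 50-base windows are shared with other genes, mainly Oas1g and Oas1b.

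The 16 other effectors split, with 8 lower, 6 higher and 2 that did not pass (median log2 fold change -0.06). Isg20, an exonuclease that degrades single-stranded RNA, measured 64.8, 62.5 and 60.7 CPM in MAOA-KO, against 117, 121 and 118 CPM in the controls and was 1.89-fold lower (log2 fold change -0.92 ± 0.04, adjusted p = 2.65e-16). Isg15, a ubiquitin-like modifier and one of the most strongly inducible interferon genes, measured 138, 131 and 136 CPM in MAOA-KO, against 197, 199 and 201 CPM in the controls and was 1.47-fold lower (log2 fold change -0.56 ± 0.04, adjusted p = 9.31e-13). For both genes the highest MAOA-KO library lay well under the lowest control. Parp14, an ADP-ribosyltransferase, measured 161, 178 and 174 CPM in MAOA-KO, against 93.2, 93.4 and 97.6 CPM in the controls (log2 fold change 0.85 ± 0.04, adjusted p = 2.05e-15). Samd9l, an antiviral factor that acts on translation, measured 341, 387 and 366 CPM in MAOA-KO, against 200.1, 204 and 212 CPM in the controls (log2 fold change 0.83 ± 0.04, adjusted p = 3.03e-15). These were the largest rises of the group, 1.8-fold and 1.78-fold, with no overlap.

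The remaining effectors moved less. Bst2, which encodes tetherin, a protein that holds budding virions at the cell surface, averaged 395 ± 21.5 CPM in MAOA-KO and 280.0 ± 4.75 CPM in the controls and rose by 1.41-fold. Rtp4, Ifi44 and Xaf1, a pro-apoptotic gene, rose by 1.24-fold, 1.23-fold and 1.22-fold. Cmpk2, a mitochondrial nucleotide kinase, averaged 52.1 ± 1.94 CPM in MAOA-KO and 74.8 ± 3.71 CPM in the controls and was 1.44-fold lower, and Ifi27, a mitochondrial and nuclear envelope protein, was 1.34-fold lower. Rsad2, which encodes viperin, Ifi35, Trim25, a ubiquitin ligase that activates RIG-I, and the GTPase Mx1 fell too, with log2 fold changes of -0.16 ± 0.04, -0.14 ± 0.05, -0.13 ± 0.04 and -0.31 ± 0.09. With library totals only, Rsad2, Ifi35 and Trim25 no longer passed (adjusted p = 0.109, 0.262 and 0.296). Ifitm3, a membrane protein that blocks viral entry and the gene with the highest level per length of the 52, measured 594, 565 and 577 CPM in MAOA-KO, against 583, 562 and 573 CPM in the controls; its groups overlapped (log2 fold change 0.02 ± 0.03, adjusted p = 0.702, 95% interval -0.05 to 0.08). With library totals only Ifitm3 was called higher (log2 fold change 0.10, adjusted p = 0.0121). Mx2 measured 16.1, 18.3 and 16.9 CPM in MAOA-KO, against 16.3, 16.9 and 17.3 CPM in the controls and did not pass either, with overlapping groups (log2 fold change 0.03 ± 0.07, adjusted p = 0.729).

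The guanylate-binding proteins and immunity-related GTPases, which are typical products of interferon gamma and attack the vacuoles of intracellular pathogens, rose in 5 of 6 cases with a median log2 fold change of 0.47. Iigp1 (ENSMUSG00000054072), an immunity-related GTPase, measured 122, 142 and 134 CPM in MAOA-KO, against 75.1, 81.5 and 79.5 CPM in the controls (log2 fold change 0.75 ± 0.05, adjusted p = 4.64e-13). Gbp3 (ENSMUSG00000028268, chromosome 3, 142560026 to 142573209) measured 99.4, 104 and 96.9 CPM in MAOA-KO, against 57.8, 62.2 and 63.6 CPM in the controls (log2 fold change 0.71 ± 0.05, adjusted p = 2.99e-13). Both groups of libraries stood far apart, with rises of 1.69-fold and 1.64-fold. Gbp7 measured 69.8, 80.2 and 78.9 CPM in MAOA-KO, against 44.4, 49.2 and 50.6 CPM in the controls (log2 fold change 0.67 ± 0.05, adjusted p = 4.02e-11), and 12.8% of its 50-base windows occur in other genes, among them Gbp3. Gbp2 measured 81.7, 86.5 and 83.8 CPM in MAOA-KO, against 66.9, 70.5 and 70.3 CPM in the controls (log2 fold change 0.28 ± 0.04, adjusted p = 2.30e-06). Igtp rose by 1.2-fold, and it overlaps Irgm2 on the same strand, which rose too (log2 fold change 0.46). Gbp5, the one member of the group that did not pass, measured 5.50, 5.19 and 5.89 CPM in MAOA-KO, against 6.90, 5.91 and 5.94 CPM in the controls (log2 fold change -0.18 ± 0.11, adjusted p = 0.119, 95% interval -0.39 to 0.02), so that its MAOA-KO libraries lay just below the controls. Summed over the 6 genes, the level was 419.9 to 462 CPM in MAOA-KO and 283 to 308 CPM in the controls.

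**Figure D2:**
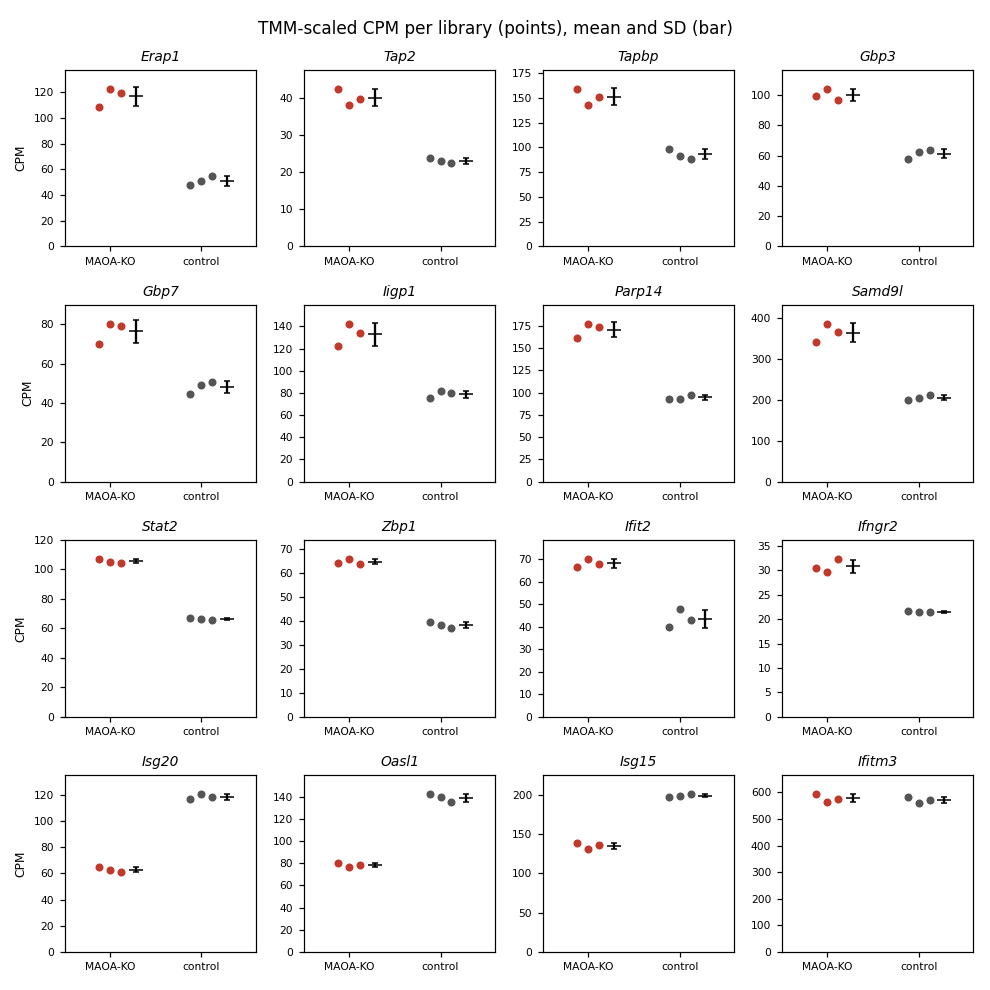
TMM-scaled CPM of 16 of the interferon genes in each library, with MAOA-KO left of control in every panel; points are libraries and the bar beside them is the mean with its SD (n = 3 each). In the first 12 panels all MAOA-KO libraries lie above all controls, in the panels of Isg20, Oasl1 and Isg15 they lie below, and for Ifitm3 they overlap.

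Peptide loading was the role with the highest median, 0.70, and 4 of its 5 genes rose. Erap1 (ENSMUSG00000021583, chromosome 13, 74639568 to 74693201), the aminopeptidase that trims peptides in the endoplasmic reticulum to the length that class I molecules hold, measured 109, 123 and 119 CPM in MAOA-KO, against 47.6, 51.0 and 55.2 CPM in the controls and rose by 2.28-fold (log2 fold change 1.19 ± 0.05, adjusted p = 1.31e-16). It was the largest rise of the 52 genes, and the groups did not overlap. Tap2, a subunit of the transporter that carries peptides into the endoplasmic reticulum, measured 42.6, 38.1 and 39.9 CPM in MAOA-KO, against 24.0, 23.1 and 22.5 CPM in the controls (log2 fold change 0.79 ± 0.06, adjusted p = 2.28e-12). Tap1, the other subunit, measured 62.7, 61.6 and 59.4 CPM in MAOA-KO, against 48.9, 50.2 and 48.7 CPM in the controls (log2 fold change 0.31 ± 0.04, adjusted p = 6.96e-07). Both subunits rose without overlap, Tap2 by 1.73-fold and Tap1 by 1.24-fold. Tapbp, which encodes tapasin, the bridge between the transporter and class I molecules, measured 159, 142 and 151 CPM in MAOA-KO, against 98.3, 91.6 and 88.5 CPM in the controls (log2 fold change 0.70 ± 0.05, adjusted p = 5.07e-13). Tapbpl, a tapasin-related peptide editor, averaged 22.6 ± 0.517 CPM in MAOA-KO and 25.1 ± 0.674 CPM in the controls and fell slightly (log2 fold change -0.15 ± 0.06, adjusted p = 0.0206). That call was lost without MAOA-KO replicate 2 (adjusted p = 0.0727), without MAOA-KO replicate 3 (0.0583), without control replicate 2 (0.0797), in DESeq2 (0.071) and with library totals only (0.322).

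Several of these genes overlap others, and the strand setting of the counting is not given in the sources used here, so reads from their shared bases cannot be told apart. Erap1 and Cast overlap by 834 bases on opposite strands; Cast averaged 352 CPM over the 6 libraries and had a log2 fold change of 0.13. Tap1 shares 212 bases with Psmb9, and Tapbp lies on the same strand as Zbtb22 over 3422 bases (Zbtb22 log2 fold change -0.03, adjusted p = 0.651). Tapbpl overlaps Vamp1, which rose (log2 fold change 0.50).

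Levels per length were compared with the deposited FPKM (fragments scaled by gene length and library total); no further scaling factor enters them. The median of the 52 genes was 33.9 FPKM in MAOA-KO and 25.5 FPKM in the controls. Ifitm3 led in both groups, with means of 879 ± 25.3 FPKM in MAOA-KO and 819 ± 16.9 FPKM in the controls, followed by Bst2, with 514 ± 29.7 FPKM in MAOA-KO and 343 ± 5.41 FPKM in the controls, and Isg15, with 198 ± 6.14 FPKM in MAOA-KO and 274 ± 2.93 FPKM in the controls. At the low end stood Gbp5, with 1.86 ± 0.120 FPKM in MAOA-KO and 1.98 ± 0.181 FPKM in the controls, and Socs1, with 0.430 ± 0.0758 FPKM in MAOA-KO and 0.813 ± 0.0485 FPKM in the controls. Some genes changed place in this order: Isg20 ranked 12 of 52 in MAOA-KO and 6 in the controls, and Oasl1 ranked 24 in MAOA-KO and 9 in the controls. Among the receptor chains Ifngr1, with 53.0 ± 1.88 FPKM in MAOA-KO and 42.9 ± 0.381 FPKM in the controls, was well above Ifngr2, with 8.55 ± 0.400 FPKM in MAOA-KO and 5.63 ± 0.0461 FPKM in the controls. In the type I receptor Ifnar1, with 21.5 ± 0.580 FPKM in MAOA-KO and 21.4 ± 0.856 FPKM in the controls, was above Ifnar2, with 8.37 ± 0.250 FPKM in MAOA-KO and 6.18 ± 0.0961 FPKM in the controls, so that in each receptor the chain with the lower level had the larger log2 fold change. In all, 6 genes averaged at least 100 FPKM in each group, and 7 in MAOA-KO and 9 in the controls averaged under 10 FPKM.

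**Figure D3:**
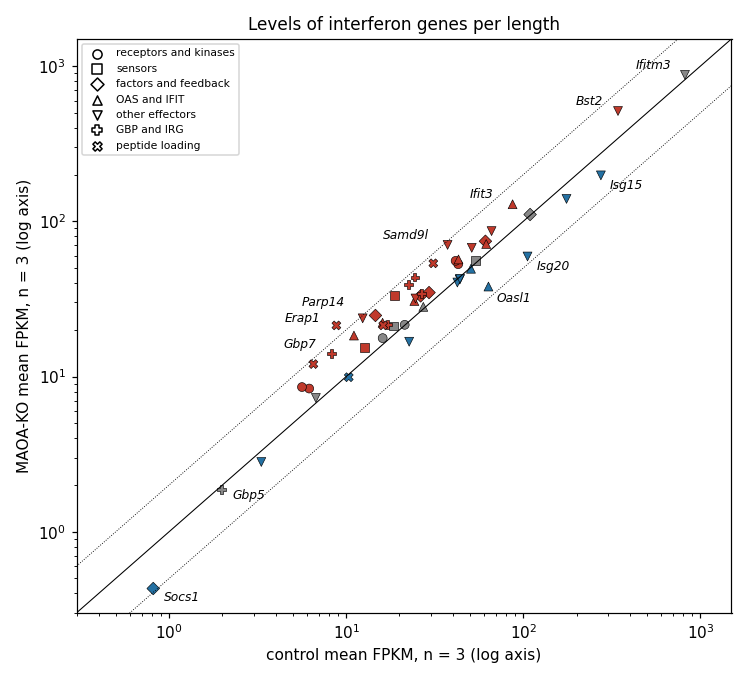
Mean deposited FPKM of each of the 52 genes in MAOA-KO (vertical log axis) against control (horizontal log axis), n = 3 libraries each; marker shape gives the role, red and blue genes were called higher and lower in MAOA-KO, and dotted lines mark 2-fold. Points run from Socs1, under 1 FPKM, to Ifitm3, at 879 FPKM in MAOA-KO, and most red points lie at middle levels.

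Many of the 52 genes sit beside each other in the genome, and neighbours were compared by joining genes with gaps of at most 300000 bases. On chromosome 19 the Ifit2, Ifit3, Ifit3b and Ifit1 genes all rose. On chromosome 17 Tapbp, Tap1 and Tap2 rose together with Psmb9 and Psmb8, immunoproteasome subunits that lie between and beside the transporter genes (log2 fold changes 1.26 ± 0.08 and 1.15 ± 0.05). On chromosome 16 Parp14 and its neighbours Parp9 and Dtx3l, which act as a complex in the interferon response, all rose (log2 fold changes 0.85 ± 0.04, 0.65 ± 0.04 and 0.50 ± 0.05). Igtp and Irgm2 on chromosome 11 both rose, and Rsad2 and Cmpk2, side by side on chromosome 12, both fell. Other neighbours diverged. In the receptor cluster on chromosome 16, Ifnar2, Il10rb and Ifngr2 rose, while Ifnar1, which lies between Il10rb and Ifngr2, did not pass. In the Oas cluster on chromosome 5, Oas2 and Oas1c rose, Oas1g and Oas1a fell, and Oas3 and Oas1b did not pass. The Oas1c call was lost in DESeq2 (adjusted p = 0.104), without MAOA-KO replicate 3 (0.188), without control replicate 1 (0.0604) and without control replicate 2 (0.0544), and Oas1b was called higher with library totals only (0.0279). On chromosome 7 Ifitm3 and Ifitm2 did not pass (Ifitm2 adjusted p = 0.11, or 0.0373 with the replicate block and 0.0359 without MAOA-KO replicate 1), whereas Ifitm1, named after its values were seen, fell: it averaged 0.164 ± 0.0387 CPM in MAOA-KO and 2.81 ± 0.156 CPM in the controls (log2 fold change -4.08 ± 0.27, adjusted p = 6.90e-13).

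**Figure D4:**
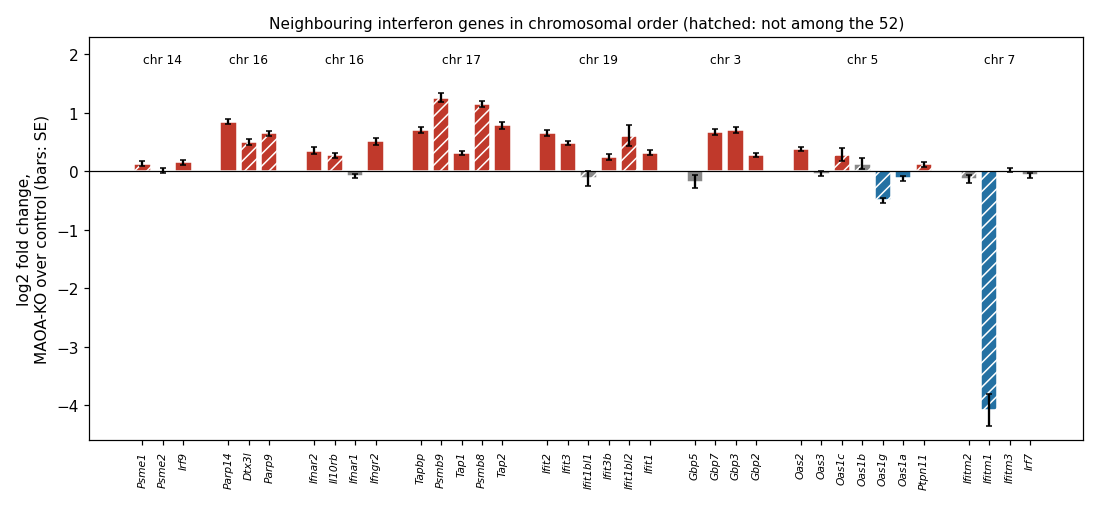
Log2 fold change of MAOA-KO over control (SE as bars) for neighbouring interferon genes in groups of 3 or more, in chromosomal order, not to genomic scale; hatched bars are pathway genes outside the 52, red and blue were called higher and lower in MAOA-KO, and grey did not pass. Bars of the chromosome 17 and 19 groups point up apart from Ifit1bl1, while those of the chromosome 5 and 7 groups are mixed.

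The rest of the pathway was read from lists of other genes, chosen with earlier results of these data known. Their shares therefore describe these lists and are not a separate test. Among the 55 other interferon-inducible effectors with a row, 36 rose, 10 fell and 9 did not pass, with a median log2 fold change of 0.45; 65.5% rose and 18.2% fell, against 37.0% and 36.9% of all genes tested. With the replicate block 12 fell, since Ifitm2 and Slfn9 were then called. This list holds 5 guanylate-binding proteins and leaves out others, among them Gbp2b and Gbp11. Of the 5, Gbp6 measured 23.7, 26.5 and 26.5 CPM in MAOA-KO, against 6.81, 6.08 and 6.68 CPM in the controls (log2 fold change 1.97 ± 0.08, adjusted p = 1.57e-17), and Gbp4 measured 43.4, 46.9 and 45.2 CPM in MAOA-KO, against 11.8, 12.9 and 11.8 CPM in the controls (log2 fold change 1.89 ± 0.06, adjusted p = 1.77e-19). Gbp8, Gbp9 and Gbp10 had log2 fold changes of 2.45 ± 0.18, 1.47 ± 0.05 and 2.40 ± 0.22, and each was called higher. The listed loci of Gbp4, Gbp8 and Gbp9 overlap on the same strand of chromosome 5, so how reads were divided among them is uncertain. At the other end Oas1g, a copy of the oligoadenylate synthetase gene, measured 23.9, 24.3 and 23.3 CPM in MAOA-KO, against 34.4, 34 and 33.1 CPM in the controls (log2 fold change -0.50 ± 0.05, adjusted p = 4.90e-09). Pml, which builds nuclear bodies, measured 78.7, 78.6 and 78.5 CPM in MAOA-KO, against 104, 99.8 and 95.9 CPM in the controls (log2 fold change -0.35 ± 0.04, adjusted p = 5.49e-08). All MAOA-KO libraries lay below all controls for these last genes.

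Signalling genes and brakes outside the 52 rose in 5 cases and fell in 9 of 15 (33.3% and 60.0%, median log2 fold change -0.15). Socs3, an inhibitor of cytokine receptor signalling, measured 42.9, 38.8 and 40.2 CPM in MAOA-KO, against 21.5, 21 and 21.4 CPM in the controls (log2 fold change 0.93 ± 0.06, adjusted p = 7.00e-14), a rise where the related Socs1 fell. Pias1, an inhibitor of STAT binding to DNA, measured 60.9, 63.4 and 61.2 CPM in MAOA-KO, against 43.2, 43.6 and 46.2 CPM in the controls (log2 fold change 0.48 ± 0.05, adjusted p = 8.16e-10). Irf8, a factor best known from myeloid cells, measured 6.46, 5.88 and 6.0 CPM in MAOA-KO, against 13.8, 13.8 and 14.2 CPM in the controls (log2 fold change -1.19 ± 0.08, adjusted p = 2.17e-12), and the phosphatase gene Ptpn6 measured 4.12, 4.24 and 3.96 CPM in MAOA-KO, against 7.25, 7.59 and 7.5 CPM in the controls (log2 fold change -0.85 ± 0.10, adjusted p = 4.38e-08). Tyk2, the kinase bound to Ifnar1, had a log2 fold change of -0.31 ± 0.05.

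Genes that act upstream of interferon production were 5 higher and 6 lower of 14 tested, and these shares, 35.7% and 42.9%, lie near those of all genes tested. Tlr3, the endosomal receptor for double-stranded RNA, measured 55.4, 62.3 and 59.6 CPM in MAOA-KO, against 32.2, 32.1 and 30.7 CPM in the controls (log2 fold change 0.90 ± 0.05, adjusted p = 2.99e-14), and Tlr4, the receptor for lipopolysaccharide, measured 138, 157 and 149 CPM in MAOA-KO, against 99.3, 97.8 and 103 CPM in the controls (log2 fold change 0.56 ± 0.05, adjusted p = 2.49e-11). Ticam1, the adaptor that serves Tlr3 and Tlr4, moved the other way, with 17.6, 16.1 and 17.6 CPM in MAOA-KO, against 31.2, 31.9 and 29.8 CPM in the controls (log2 fold change -0.86 ± 0.06, adjusted p = 2.00e-12). Irf5 measured 1.65, 1.72 and 1.62 CPM in MAOA-KO, against 5.60, 5.49 and 5.2 CPM in the controls (log2 fold change -1.70 ± 0.13, adjusted p = 1.99e-11), and Mavs, the adaptor of RIG-I and MDA5, and Irf3 had log2 fold changes of -0.48 ± 0.05 and -0.36 ± 0.05. The other rises were Tbk1, Trim56 and Aim2 (log2 fold changes 0.55 ± 0.05, 0.38 ± 0.05 and 0.26 ± 0.04). The other falls were Ikbke and Mb21d1 (-0.69 ± 0.06 and -0.28 ± 0.11), and the Mb21d1 call was lost in DESeq2 (adjusted p = 0.108). The sensor adaptor Tmem173, which encodes STING, did not pass (log2 fold change 0.03 ± 0.04, adjusted p = 0.448, or 0.00748 and higher with library totals only).

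Interferon transcripts themselves were at the edge of detection. Of 15 interferon ligand genes listed, Ifnb1 and Ifna4 had a row. Ifnb1 had 1, 1 and 1 counts in MAOA-KO, against 7, 9 and 11 counts in the controls, and Ifna4 had 0, 0 and 0 counts in MAOA-KO, against 3, 5 and 4 counts in the controls. Both stayed below the filter and were not tested in the main comparison, but without a filter, and in DESeq2, both were called lower. The lambda receptor chain Ifnlr1, named after its values were seen, averaged 4.46 ± 0.467 CPM in MAOA-KO and 0.421 ± 0.0755 CPM in the controls (log2 fold change 3.39 ± 0.20, adjusted p = 7.49e-14), and its partner Il10rb measured 29.3, 30.9 and 30.0 CPM in MAOA-KO, against 24.9, 25.0 and 25.1 CPM in the controls (log2 fold change 0.27 ± 0.05, adjusted p = 8.05e-05).

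Among 13 partners in peptide supply and loading 7 rose and 3 fell, and the called share of 76.9% is about that of all genes tested, 73.9%. Psmb9, an immunoproteasome subunit, measured 17.6, 16.2 and 18.5 CPM in MAOA-KO, against 7.46, 6.96 and 7.21 CPM in the controls (log2 fold change 1.26 ± 0.08, adjusted p = 3.40e-13). B2m, the light chain of class I molecules, averaged 2713 ± 21.1 CPM in MAOA-KO and 1156 ± 5.70 CPM in the controls (log2 fold change 1.23 ± 0.03, adjusted p = 4.39e-21), and Nlrc5, the class I transactivator, had a log2 fold change of 0.64 ± 0.04. Of the chaperones on the list, Calr and Pdia3, which work in the loading complex, fell: Pdia3 averaged 1391 ± 29.0 CPM in MAOA-KO and 1623 ± 49.2 CPM in the controls (log2 fold change -0.22 ± 0.03, adjusted p = 2.50e-06) and Calr averaged 1632 ± 27.0 CPM in MAOA-KO and 2533 ± 96.0 CPM in the controls (log2 fold change -0.63 ± 0.03, adjusted p = 1.38e-14). Pdia4, a related endoplasmic reticulum enzyme, fell too, with means of 454 ± 4.58 CPM in MAOA-KO and 866 ± 3.49 CPM in the controls (log2 fold change -0.93 ± 0.03, adjusted p = 2.18e-18), while Canx did not pass (log2 fold change 0.04 ± 0.04, adjusted p = 0.344, or 0.00368 and higher with library totals only).

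**Figure D5:**
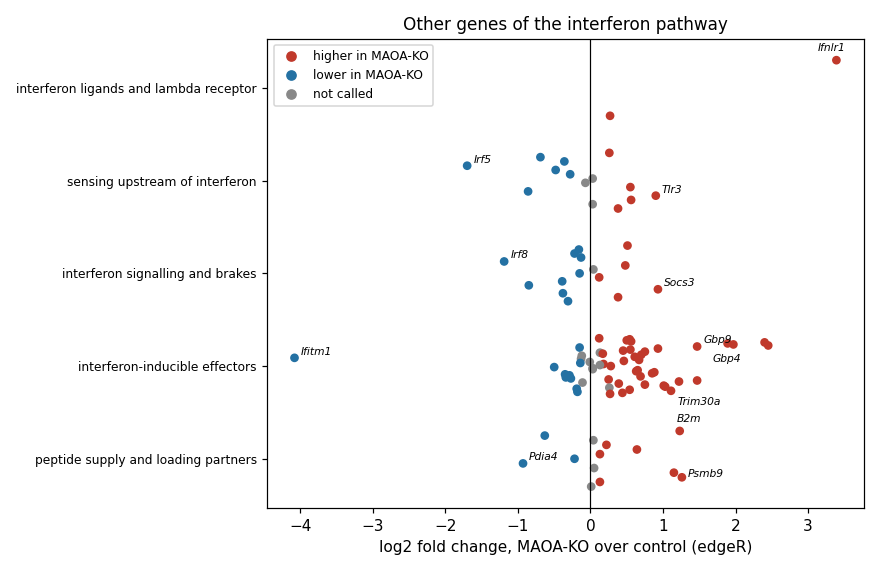
Log2 fold change of MAOA-KO over control for tested genes of 5 lists of the interferon pathway outside the 52, 1 point a gene, spread vertically within a list for legibility; red and blue were called higher and lower in MAOA-KO, grey did not pass. Values run from Ifitm1 at -4.08 to Ifnlr1 at 3.39, and most effectors lie to the right of 0.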

How the data were processed

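The authors deposited 1 table with whole-number read counts per gene and library, FPKM, and their own comparison as a log2 fold change, p-values with adjusted p-values, and −log10 values of these, as the file headers name them. Loci are on GRCm38.p6 per the file headers, and the submitters' processing notes name mm10. The labels' protocol describes small RNA enrichment, and no aligner, counting tool or strand setting is given there. Every row had at least 10 counts in total. For the 52 genes the length implied by the deposited FPKM, the counts and the library totals varied between libraries by at most a relative 3.16e-05. The authors' comparison was not used. Against GENCODE M21 (GRCm38), 51 of the 52 loci and 50 implied lengths matched the named gene; Isg15 differed in both and Parp14 in length.

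Counts were tested with edgeR 4.0.16 in R 4.3.3: filterByExpr (13243 genes), TMM scaling, a robust quasi-likelihood fit with group as its term, and Benjamini-Hochberg adjustment at 0.05. Standard errors were obtained from each estimate and its F statistic (estimate over root F), 95% intervals are 1.96 standard errors on each side, and errors of CPM and FPKM are SDs over 3 libraries. An exact permutation test of 3 libraries against 3 cannot go below p = 0.1. The common biological coefficient of variation was 0.0332. Replicate libraries differed by more than counting error (mean chi-square per gene 1.92 to 4.26) and were treated as separate samples. In simulated counts with the mean levels and library sizes of this comparison, over 13049 genes, 77.6% of 1.2-fold and 90.0% of 2-fold changes were recovered, with 2.82% false calls. The simulation changed a small part of the genes and gave every gene the common coefficient of variation. Here 73.9% of the genes tested were called, so these rates need not hold for these data. Same-numbered libraries of the groups deviated together over the 8993 genes averaging 10 CPM or more (correlations 0.367, 0.269 and 0.255) and less over all genes tested (0.088, 0.0576 and 0.0346); what a shared number stands for is not in the labels. On the first measure MAOA-KO 2 and control 3 came near these values too (0.247), while the other differently numbered libraries ran from -0.484 to 0.0876. Whether the numbers pair the samples was therefore not established. The main fit did not pair them, and the block was an alternative.

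The members and lists were chosen with earlier results of these data known. By the naming rule, per-library values are given for up to 4 called genes of each role with the largest change that averaged 5 CPM or more in the group with more expression, for all receptors and kinases, for up to 2 genes a role that did not pass, and, in other lists, for up to 2 called genes at each end. Shared 50-base windows were counted over GENCODE transcripts. Alternatives were DESeq2 1.42.0, other scalings and filters, a test against 1.2-fold, leaving out each library and the replicate block.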

Additional observations from a re-analysis of the deposited data

How the results depend on the processing

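No single gene changed direction past the threshold under any of 13 alternatives: of 676 repeats over the 52 genes 633 kept direction and side of the threshold, 32 lost the call and 11 gained it, and of 1157 repeats over 89 other listed genes 1089 kept both, 53 lost the call and 15 gained it. The strictest alternative, a test against a 1.2-fold change, asks for more by construction. It called 6079 genes (3120 higher, 2959 lower) and 22 of the 52 (16 higher, 6 lower). By role it left 1 higher sensor, 3 higher and 1 lower OAS and IFIT genes and 3 higher GBP and IRG genes. Of the other effectors 3 stayed higher and 4 lower, and of the factors and feedback genes 1 higher and 1 lower. Among peptide loading genes 3 stayed higher and 0 lower, and among receptors and kinases 2 stayed higher. In the other lists it left 30 higher and 4 lower inducible effectors, and 4 higher and 4 lower signalling genes. Of the genes upstream of interferon production 4 stayed higher and 5 lower, and of the peptide supply partners 4 higher and 2 lower. From the ligand and lambda receptor list 1 gene stayed higher.

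Library totals only shifted the median of all genes by 0.086 (log2). With them 7 of the 52 were lower: 1 in OAS and IFIT, 5 other effectors, 1 among factors and feedback genes and 0 in peptide loading. Of the signalling genes 5 were lower. DESeq2 called 0 peptide loading genes lower, and DESeq2 and the fit without a filter each called 2 genes of the ligand list lower, because those genes were then tested. The replicate block called 10205 genes (5099 higher, 5106 lower) and 32 higher and 14 lower of the 52, with 2 lower factors and 1 lower receptor gene. Leaving out 1 library at a time gave 31 to 32 higher and 10 to 13 lower of the 52, with 1 to 2 lower OAS and IFIT genes, 1 to 2 lower factors and 0 to 1 lower peptide loading genes. Beyond the calls named above, the cause of these changes was not tested. Depth limits the genes with low counts, such as Ifnb1, Ifna4, Ifitm1 and Socs1.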
